A study of Mus musculus with 2 samples.

Results

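The interferon pathway and the genes it induces were described in a mouse embryonic stem (ES) cell line that lacks 1.3 Mb of the region lost in Williams-Beuren syndrome (WBS), a human chromosome deletion disorder. The gene set lists 43 genes, and its members were taken as every probe set that the platform annotation assigns to exactly 1 of them. This gave 65 of the 45101 probe sets on the array, for 40 of the 18194 genes with a probe set of their own. The other 3 genes had none by that rule: Rigi, which the annotation carries under its older symbol Ddx58, Isg15, and Ifi44.

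All values come from 2 Affymetrix arrays of 1 group, genotype Del1.3MbWBS, which the labels call biological replicates without saying whether they were separate cultures. The spread between them may therefore be technical. The cells were grown with leukaemia inhibitory factor, 20% serum replacement, antibiotics (penicillin/streptomycin), mercaptoethanol and added amino acids on a layer of feeder cells, so the total RNA can hold transcripts of both cell types. No line without the deletion and no culture given interferon was analysed here, so no effect of the deletion or of interferon can be read from these values. In the mouse reference gene table none of the 43 genes lies between Gtf2i and Fkbp6, taken here as the ends of the WBS segment. Oas2, Oasl1 and Oasl2 share the chromosome of that segment, 5. The labels do not say which genes the deletion of this line removes.

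Interferons are secreted proteins that warn cells of virus infection. Type I interferons bind the receptor chains Ifnar1 and Ifnar2, and interferon gamma binds Ifngr1 and Ifngr2. The receptor-bound kinases then activate STAT proteins, and a complex that contains Stat2 and Irf9 binds the interferon-stimulated response element (ISRE) in the promoters of induced genes. The proteins made from these genes bind foreign RNA, block translation or close membranes to virus entry. Mouse ES cells are known for a weak interferon response, whereas fibroblasts, the usual feeder cells, respond readily.

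The ISRE was searched as GAAA, any 2 bases and GAAA again, on both strands, in promoter windows of 300 bases, from 250 before to 50 after each gene start, taken from RefSeq on build GRCm38.p6. Gene start here means the start each window was built on, which equals that of the reference gene table in 22 of 46 windows. The promoter set held these 46 windows for 37 of the 43 genes, Rigi being matched as Ddx58. Of these genes 14 (37.8%) had at least 1 match, against 3.94% of the 17491 protein-coding genes with a window. The genes were listed because they belong to this pathway, so this share describes the list and is independent of the arrays. The following stretches show the clearest arrangements beside promoters without a match. Capitals mark the ISRE letters, which begin and end with TTTC where the match lies on the opposite strand, and each stretch ends 1 base before the gene start.
Ifit1, chr19:34640689-34640888, plus strand: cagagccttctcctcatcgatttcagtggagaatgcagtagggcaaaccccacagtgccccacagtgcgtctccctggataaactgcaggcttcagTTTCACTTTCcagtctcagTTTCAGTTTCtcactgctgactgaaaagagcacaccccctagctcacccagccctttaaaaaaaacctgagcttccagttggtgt
Ifit3, chr19:34583329-34583528, plus strand: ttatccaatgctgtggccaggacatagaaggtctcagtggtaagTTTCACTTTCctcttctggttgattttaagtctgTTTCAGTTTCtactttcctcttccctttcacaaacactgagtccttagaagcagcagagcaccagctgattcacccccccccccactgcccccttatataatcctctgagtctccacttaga
Bst2, chr8:71537473-71537672, minus strand: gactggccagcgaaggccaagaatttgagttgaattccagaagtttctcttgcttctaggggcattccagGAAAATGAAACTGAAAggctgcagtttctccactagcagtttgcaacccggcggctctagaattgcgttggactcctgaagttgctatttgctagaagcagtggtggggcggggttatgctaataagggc
Ifnar1, chr16:91485015-91485214, plus strand: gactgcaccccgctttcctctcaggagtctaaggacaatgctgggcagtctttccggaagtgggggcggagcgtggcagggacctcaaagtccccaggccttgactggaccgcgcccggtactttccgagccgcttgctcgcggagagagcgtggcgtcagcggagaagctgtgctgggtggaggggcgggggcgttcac
Irf3, chr7:44997448-44997647, plus strand: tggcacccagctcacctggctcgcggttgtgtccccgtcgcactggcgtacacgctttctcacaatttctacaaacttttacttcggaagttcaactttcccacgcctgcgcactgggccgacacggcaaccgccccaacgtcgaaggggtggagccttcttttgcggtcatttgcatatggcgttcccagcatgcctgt

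Ifit1 and Ifit3 each held a pair of ISRE matches on the opposite strand, with the same letters in the same order, GAAAGTGAAA farther from the start and GAAACTGAAA nearer to it. Bst2 held a pair that overlap, so that the GAAA of one is shared with the other. The receptor gene Ifnar1 and the transcription factor gene Irf3 had no match in their windows. Shorter stretches around the match are given for 6 further members, because their levels follow.
Gbp2, chr3:142620592-142620625, plus strand: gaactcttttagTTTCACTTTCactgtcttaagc
Gbp3, chr3:142559987-142560026, plus strand: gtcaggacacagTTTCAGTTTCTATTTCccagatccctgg
Ifitm2, chr7:140955986-140956019, minus strand: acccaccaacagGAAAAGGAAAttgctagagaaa
Rsad2, chr12:26456551-26456584, minus strand: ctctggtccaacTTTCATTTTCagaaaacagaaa
Stat2, chr10:128270264-128270297, plus strand: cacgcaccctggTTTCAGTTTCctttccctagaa
Irf2, chr8:46739495-46739525, plus strand: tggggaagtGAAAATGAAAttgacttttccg

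The values are RMA log2 values, in which 1 unit is a doubling. A gene with several probe sets is represented by its brightest one, judged by the mean of the arrays. The background call asked that the mean and the values on both arrays exceed the 95th percentile seen in 39 genes of olfactory receptors, which are not expected to be transcribed in these cells. That threshold was 5.59 for the mean, 5.60 on replicate 1 and 5.58 on replicate 2. Probes differ in affinity, so the distance of a gene from the threshold is not a measure of transcript number, and levels of different genes are not ranked.

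Of the 40 measured genes, 38 were above background, which is 95% of them, against 68.4% of all 18194 genes. Their median level was 9.07, with quartiles of 8.39 and 10.27, beside 7.19, 5.18 and 9.20 for all genes. Only Irf2 and Irf8 were not called. Just below the threshold lay Irf2, at 5.44, and the nearest gene above it was Mx1, at 7.08, so no member fell within 1 log2 unit above the threshold. In the same RNA 10 of 10 markers of fibroblasts were called, from 8.98 for Pdgfra to 14.87 for Col1a2. The labels do not give the origin of the feeder cells. Of the ES cell markers 8 of 8 were called, from 9.76 for Esrrb to 14.09 for Dppa5a. Which cells made the fibroblast marker transcripts was not tested, as no sample of feeder cells alone was analysed. The part of feeder RNA in the interferon gene levels was not tested, and fewer expressing cells cannot be told apart from less RNA per cell.

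**Figure D1:**
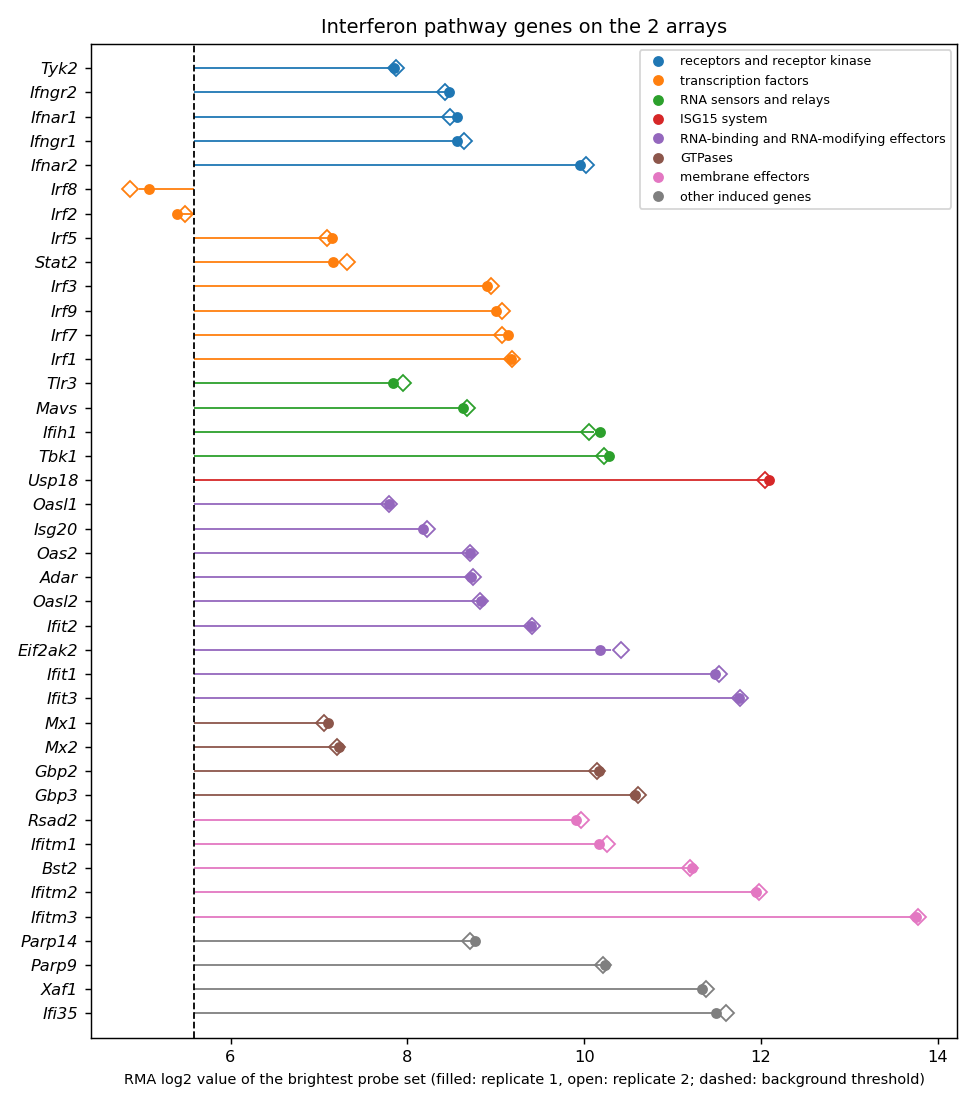
RMA log2 values (x axis) of the 40 measured interferon pathway genes (y axis) on replicate 1 (filled points) and replicate 2 (open points), coloured by role. The dashed line is the background threshold of 5.59; all genes except Irf2 and Irf8 lie to its right.

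The receptors of both interferon types were represented in the RNA. Ifnar1, the chain that carries the kinase Tyk2, was at 8.57 on replicate 1 and 8.48 on replicate 2. Ifnar2, the chain that binds ligand most tightly, was at 9.95 and 10.02. On its brightest probe set each chain of the type I receptor was thus above the threshold on both arrays. The second Ifnar1 probe set, 1442222_at, was not, at 4.97 and 5.06, and the Ifnar2 probe sets are all marked as shared between transcripts. Ifngr1, the ligand-binding chain for interferon gamma, was at 8.56 and 8.64, and its partner Ifngr2 was at 8.48 and 8.42. Tyk2 itself was at 7.85 and 7.87. The 5 genes of this role were all above background.

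The transcription factors were the role with genes that were not called, 6 of 8 being above background. Stat2, which joins Irf9 in the complex that binds the ISRE, was at 7.16 on replicate 1 and 7.31 on replicate 2. Irf9, its DNA-binding partner, was at 9.01 and 9.07. Irf1, an activator that both interferon types induce, was at 9.17 and 9.19. These 3 factors of the response arm were each measured with a small spread between arrays, the SD being 0.11 for Stat2, 0.043 for Irf9 and 0.0092 for Irf1.

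Among the factors that switch on interferon genes after infection, Irf3 was at 8.90 on replicate 1 and 8.95 on replicate 2. Irf7, which is itself induced by interferon, was at 9.14 and 9.07. Irf5, best known in immune cells, was at 7.15 and 7.09. Irf2, an antagonist of Irf1, was at 5.39 and 5.48 on its single probe set, below the threshold on both arrays. Irf8, a factor of myeloid and dendritic cells, was at 5.07 and 4.87 on the brighter of its probe sets, also below on both. In the leukocyte marker list, the pan-leukocyte gene Ptprc at 4.05 and Itgam at 3.92 were not above background, and the other 5 of 7 measured markers were, from 5.74 for Adgre1 to 9.33 for Lyz2. Of the endothelial markers 3 of 4 were, with Kdr at 6.67, Pecam1 at 6.20 and Tek at 6.15, whereas Cdh5 was not (4.47). Both counts stand beside 68.4% of all genes called, and the presence of either cell type was not tested.

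The sensors that detect viral RNA and the adaptors that relay the signal were all above background in the 4 measured genes. Ifih1, which encodes the long double-stranded RNA sensor MDA5, was at 10.18 on replicate 1 and 10.05 on replicate 2. Tlr3, the endosomal sensor of double-stranded RNA, was at 7.84 and 7.95 on a probe set marked as shared between transcripts. Its unshared 1422781_at was lower, at 5.84 and 5.98, and nearer the threshold. Mavs, the mitochondrial adaptor of MDA5 and RIG-I, was at 8.63 and 8.67, and Tbk1, the kinase that activates Irf3, was at 10.28 and 10.23. Both are values of probe sets marked as shared. The unshared 1451176_at of Mavs was at 8.09 and 8.14, and the unshared 1422469_at of Tbk1 was at 8.81 and 8.84. Ifih1, Tlr3, Mavs and Tbk1 were thus all in the called set. The RIG-I gene, annotated as Ddx58, had 3 probe sets, which lay outside the exact-symbol rule. Its 1436562_at was at 10.22 and 10.30, 1456890_at at 7.77 and 7.77, and 1446457_at at 5.82 and 5.74. The last had a mean of 5.78, close to the threshold of 5.54 that applies to single probe sets.

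The induced genes whose proteins act on RNA were above background in 9 of 9 cases. Ifit1, which binds viral RNA that lacks a host cap, was at 11.48 on replicate 1 and 11.53 on replicate 2. Ifit2 was at 9.40 and 9.41, and Ifit3 was at 11.75 and 11.77. In the reference gene order the close relatives Ifit1bl1, Ifit3b and Ifit1bl2 lie between Ifit3 and Ifit1, and Ifit2 is next to Ifit3. Whether the Ifit probe sets also detect such copies was not tested, so their signal is not told apart here. Oas2, which makes the 2′,5′-linked oligoadenylate that activates RNase L, was at 8.71 on both arrays. Its relatives Oasl1, an inhibitor of Irf7 translation in mouse, and Oasl2 were at 7.79 on both and at 8.83 on both. Between arrays, Oas2, Oasl1 and Oasl2 differed by at most 0.0072 log2 units.

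Eif2ak2, which encodes the translation-blocking kinase PKR, was at 10.18 on replicate 1 and 10.42 on replicate 2. That difference of 0.23 log2 units was the largest among the members' representative probe sets. The difference was -0.0037 on the Eif2ak2 probe set 1422006_at and 0.076 on 1440866_at. Adar, the adenosine deaminase that edits double-stranded RNA, was at 8.72 and 8.74. Isg20, an exonuclease, was at 8.18 and 8.22.

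Usp18, the protease that removes Isg15 from proteins and damps signalling at Ifnar2, was at 12.10 on replicate 1 and 12.05 on replicate 2. Isg15 itself was measured only by a probe set annotated to more than 1 gene and is not valued here.

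The guanylate-binding and Mx proteins are GTPases, and all 4 genes were above background. Gbp2 was at 10.17 on replicate 1 and 10.15 on replicate 2, and Gbp3 was at 10.57 and 10.61. Both are values of probe sets marked as shared, and the unshared 1418240_at of Gbp2 was at 9.37 and 9.29. In the reference gene order Gbp2b lies between Gbp3 and Gbp2. Whether the Gbp probe sets also detect related genes was not tested. Mx1, which restricts influenza virus, was at 7.10 and 7.05, and Mx2 was at 7.23 and 7.20. The means of Mx1 and Mx2 lay 1.49 and 1.62 log2 units above the threshold. The reference gene table, which describes C57BL/6J, lists Mx1 and Mx2 as transcribed pseudogenes. The strain of this line is not given in the sources used here.

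The effectors that work in membranes were above background in 5 of 5 cases. Ifitm3, which blocks fusion of incoming virus in endosomes, was at 13.75 on replicate 1 and 13.78 on replicate 2, and Ifitm2 was at 11.94 and 11.98. Ifitm1, which in mouse is also known from germ cell development, was at 10.16 and 10.26. These 3 genes were called, each on 1 probe set. Of their relatives outside the set, Ifitm5 was called at a mean of 6.11 and Ifitm7 was not, at 4.44, both being chosen after their values were seen. Bst2, or tetherin, which holds budding virus at the cell surface, was at 11.22 and 11.20. Rsad2, or viperin, which makes a chain-terminating nucleotide, was at 9.90 and 9.97.

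Of the remaining induced genes, Parp9 and Parp14, related ADP-ribosyltransferase genes, were at 10.23 and 10.22 and at 8.77 and 8.71 on replicates 1 and 2. Ifi35, a regulator of innate signalling, was at 11.49 and 11.60 on a probe set marked as shared between transcripts, and at 9.83 and 9.85 on the unshared 1424617_at. Xaf1, a gene linked to apoptosis, was at 11.34 and 11.37. The 4 measured genes were all above background.

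The probe sets of a gene differed far more than the arrays did. Of the 40 genes, 22 had 1 probe set and 18 had several. Over these 18, the span between the highest and the lowest mean had a median of 1.35 log2 units and ran from 0.43 for Stat2 to 4.26 for Parp14. Against a threshold of 5.54, set in the same way from 44 olfactory receptor probe sets, 60 of the 65 member probe sets (92.3%) were above background, against 62.7% of all 34958 probe sets with 1 gene symbol. In Parp14 and Ifnar1 the probe sets disagreed on the call. Parp14 had 1432548_at at 4.40 on replicate 1 and 4.58 on replicate 2, and Ifnar1 had 1442222_at at 4.97 and 5.06. The other 3 probe sets that were not called were the single one of Irf2 and both of Irf8, the second being 1416714_at at 4.39 and 4.40. Irf3 had 4 probe sets, with the shared 1426111_x_at at 8.90 and 8.95 and the unshared 1435271_at at 6.17 and 5.90.

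**Figure D2:**
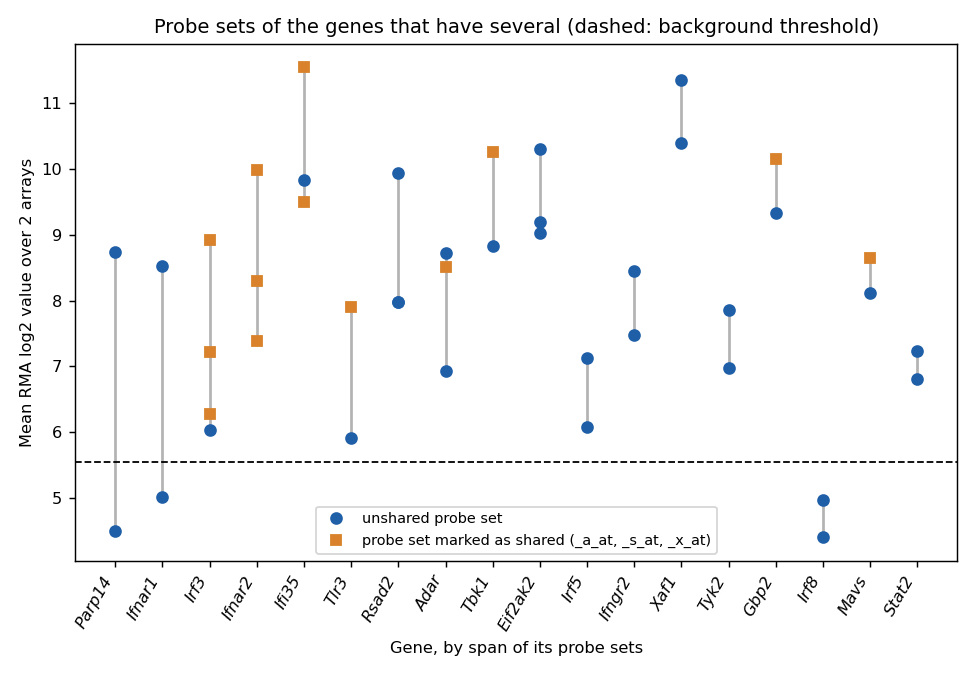
Mean RMA log2 value over both arrays (y axis) of each probe set of the 18 genes that have several (x axis, by span), with shared probe sets as squares and unshared ones as circles. The dashed line is the probe set threshold of 5.54; only probe sets of Parp14, Ifnar1 and Irf8 lie below it.

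The replicates gave nearly the same values for these genes. Over the 38 called genes the difference, replicate 2 minus replicate 1, had an SD of 0.069 log2 units and ran from -0.12 for Ifih1 to 0.23 for Eif2ak2. In all, 12769 genes exceeded the threshold on 1 or both arrays, and their SD was 0.114. Dim genes vary more, and among genes with a mean above 8 the SD was 0.068 for the 31 members and 0.073 for all 7461 genes. No member differed by 1 log2 unit or by 1.5-fold, sizes that 0.0% and 0.0783% of all genes reached. Of the 38, 23 were higher in replicate 2, or 60.5%, against 56.8% of all genes. The median difference was 0.018, against 0.015 over all genes.

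Among all 65 member probe sets the largest differences were -0.41 for Tyk2 on 1432576_at and 0.34 for Rsad2 on 1421008_at. The first was at 7.18 on replicate 1 and 6.77 on replicate 2, and the second was at 7.81 and 8.15. The brighter probe sets of the same genes, 1417306_at and 1436058_at, differed by 0.024 and 0.064. In Tyk2 and Rsad2 the larger difference was thus not seen on the brightest probe set. In Eif2ak2 and Irf8 the brightest probe set had the larger one, 0.23 and -0.21. In all, 7 member probe sets differed by more than 0.2 log2 units.

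**Figure D3:**
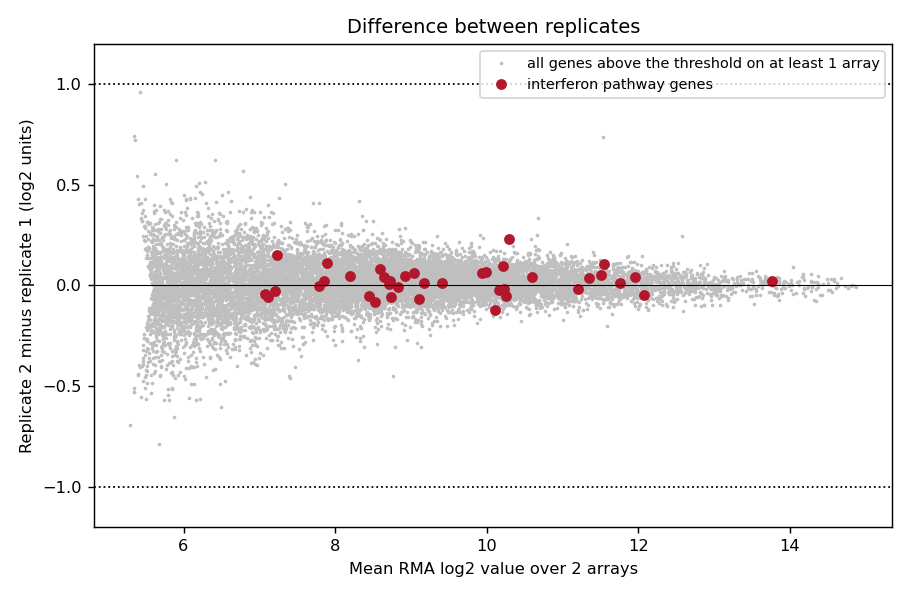
Replicate 2 minus replicate 1 in log2 units (y axis) against the mean RMA log2 value (x axis) for 12769 genes (grey) and the 38 called interferon pathway genes (red). Dotted lines mark 1 log2 unit; the members lie between -0.12 and 0.23.

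The wider pathway was read from 5 further lists with 107 genes, of which 89 were measured and 71 were above background, against 68.4% of all genes. The interferon genes themselves were the list with few calls, 2 of 10. Ifnb1, the first type I interferon made in most infected cells, was at 4.58 on replicate 1 and 4.82 on replicate 2, and Ifng was at 3.22 and 3.20. Ifna2 (4.78), Ifna4 (4.46), Ifna5 (4.26), Ifna11 (3.66) and Ifnab (3.88) had means below the threshold. Ifna1 passed on replicate 1 only, at 5.65 and 5.25. Ifna9, at 5.66 and 5.61, and Ifnz, at 6.71 and 6.96, were called. The Ifna genes are near-identical copies, so a probe set cannot be tied firmly to 1 of them. The lack of a call does not show that an interferon was absent.

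In the list of kinases, other receptors and feedback genes 13 of 14 were above background. The kinase genes Jak1 and Jak2, which act beside Tyk2 at the receptors, had means of 10.34 and 8.55. Stat3 was at 10.51, and the feedback inhibitor genes Socs1 and Socs3 were at 6.34 and 10.89. Of the phosphatase genes, Ptpn2 was at 10.96, Ptpn6 at 7.26 and Ptpn11 at 11.13. Pias1, an inhibitor of STAT proteins, was at 8.35. The corepressor genes Irf2bp1 and Irf2bp2, whose proteins bind Irf2, were at 7.70 and 10.58. The receptor chain genes of interferon lambda were at 5.65 for Ifnlr1, close to the threshold, and 9.19 for Il10rb. Irf4, a lymphoid factor, was not above background at 4.62.

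In the list of nucleic acid sensing 15 of 16 were called, with the DNA sensor gene Cgas at 7.15, its adaptor gene Sting1 at 8.02, the RIG-I relative Dhx58 at 7.24 and Tlr9 at 6.29, whereas Tlr7 was not (4.55). Of further induced genes 26 of 32 were called, with Oas1a at 11.12, Oas1b at 7.43, Ifi27 at 11.11 and Ifi27l2a at 6.72, whereas Oas1c (5.70) and Oas3 (5.07) were not. Oas1c exceeded the threshold on replicate 1 only. Of genes typical of the interferon gamma response 15 of 17 were called, with Gbp6 at 9.21, Gbp7 at 9.57 and the immunity-related GTPase genes Igtp at 10.03 and Irgm1 at 11.76. Ido1, a tryptophan-degrading enzyme gene (4.53), and Ciita, the regulator of MHC class II genes (4.999), were not.

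**Figure D4:**
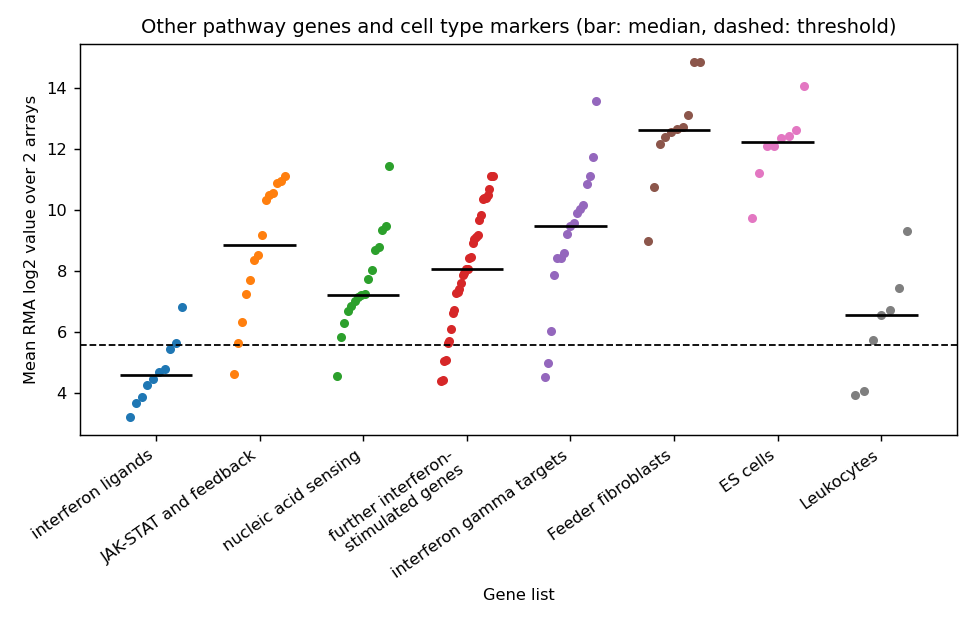
Mean RMA log2 value over both arrays (y axis) of each measured gene in 5 further pathway lists and 3 cell type marker lists (x axis), with the median as a bar. The dashed line is the threshold of 5.59; 8 of the 10 interferon genes lie below it, and all 10 fibroblast markers lie above it.

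Set beside the promoter sequences, 12 of the measured genes had an ISRE match and 22 had a window without one. Of the 12, 11 were above background, and of the 22, 21 were. The uncalled gene was Irf2 among those with a match and Irf8 among those without. Isg15 and Rigi also had a match but no level of their own. The matches numbered 21 in the 14 genes, and 13 of them began within 150 bases before the gene start. In Ifitm3 the matches lay just after the start, the first bases being 3 and 20, and in Eif2ak2 and Ifih1 at 19 and 33. A missing match says only that these letters are not in this window: Irf7, Oasl2 and Xaf1 had none.

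The gamma-activated site, searched as TTCNNNGAA, which reads the same on both strands, occurred in 12 of the 37 genes (32.4%), against 8.92% of protein-coding genes. Irf1 had 1 match, TTCCCCGAA, whose first base was at position -90 from the start. Irf8 had a pair, at positions -171 and -153. In 4 genes both motifs occurred, in 15 neither, and 2 ISRE matches, in Bst2 and Ifitm3, overlapped a gamma-activated site. CpG dinucleotides had a median of 6 in the 14 windows with an ISRE match, 10 in the 32 member windows without one and 13 in 21262 protein-coding windows.

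**Figure D5:**
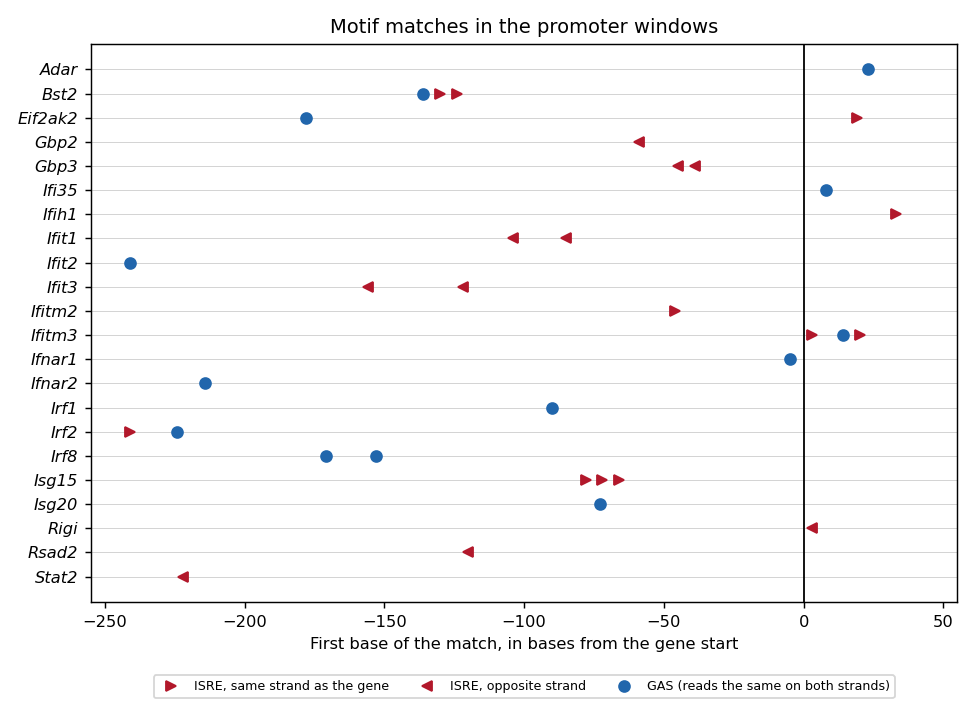
First base of each motif match in bases from the gene start (x axis) for the genes with at least 1 match (y axis). Triangles mark ISRE matches and point right on the strand of the gene and left on the opposite strand, and circles mark gamma-activated sites; 13 of 21 ISRE matches begin within 150 bases before the start.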

How the data were processed

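Total RNA of 1 mouse ES cell line was measured on 2 arrays; cRNA was made from 6 µg of RNA, per the labels' protocols. The authors deposited log2 values made with RMA, per the submitters' processing notes; its version is not given in the sources used here, nor is the set of arrays it was run on. RMA equalises the arrays' distributions (medians 6.01 and 6.01) and gives no detection call, and the number of arrays limits the precision. All sample columns were used.

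The platform annotation gave the gene of each probe set. Python 3.11.15, pandas 2.3.3, numpy 2.4.6 and statsmodels 0.14.6 (loess, fraction 0.3) were used. With 1 group no test was made. Reference genes had 1.13 probe sets each, members 1.63 and all genes 1.92, so using the brightest probe set favours members and all genes over the reference. The calls and the motif search were run on simulated data. The simulated silent genes were drawn from the reference genes that set the threshold, so a low call rate among them was built in. For differences, the size limit was only applied to simulated numbers, an outcome fixed in advance.

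Every member with a probe set of its own is named. Of the wider lists, all ligands and all JAK-STAT and feedback genes are named, and of each other list the first 4 above background and the first 2 not above. The members and lists were chosen with earlier results of these data known. Alternatives covered the probe set rule, threshold, reference genes, centring, loess, filter, size, motif and each array alone. Promoter windows come from RefSeq, build GRCm38.p6; protein sequences were not used here.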

Additional observations from a re-analysis of the deposited data

How the results depend on the processing

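The count of 38 of 40 interferon genes above background stayed between 38 and 39 when each gene took the median of its probe sets, at the 90th and 99th percentiles, 37 vomeronasal and taste receptor genes as reference, centring, and each array alone. With unshared probe sets it was 30 of 31. Irf2 was called at the 90th percentile and when genes took the median of their probe sets. The 60 of 65 probe sets stayed between 60 and 61, or 40 of 44 unshared. The 71 of 89 genes of the wider lists ranged from 66 with vomeronasal and taste receptors to 74 at the 90th percentile, or 60 of 74 unshared, and from 72 to 73 with each array alone. The interferon ligand count of 2 became 1 at the 99th percentile and with vomeronasal and taste receptors, and 3 at the 90th percentile, on replicate 1 alone and when genes took their probe set median. The SD of the difference, 0.069, ranged from 0.069 to 0.077, and 0 members passed 1 log2 unit or 1.5-fold in any setting run. The 14 genes with an ISRE match became 16 with GAAANNGAA, against 9.43% of protein-coding genes, and 10 before the start only, against 3.48%. No paired analysis was possible because there is only 1 group. Signal over background limits what can be said of Irf2, Ifna9, Ifnlr1 and other genes close to the threshold.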

Other observations

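Many of the listed genes are neighbours in the reference gene table. Chromosome 16 holds 7 of them and chromosome 7 holds 6. On chromosome 16, Ifnar1 and Ifngr2 have no protein-coding gene between them, and Il10rb, whose product serves the interferon lambda receptor, lies between Ifnar2 and Ifnar1. Dtx3l, whose product pairs with Parp9, lies between Parp14 and Parp9 and was at 9.06 ± 0.021 (SD, n = 2). On chromosome 7, Ifitm2, Ifitm1 and Ifitm3 follow each other, and on chromosome 5 Oasl2 and Oasl1 do. Chemokine and antigen presentation genes that interferon gamma induces were also above background. Cxcl10 was at 10.87 ± 0.046, Cxcl9 at 8.59 ± 0.086, the peptide transporter gene Tap1 at 8.44 ± 0.031, the immunoproteasome gene Psmb8 at 9.92 ± 0.017 and B2m at 13.58 ± 0.034 (SD, n = 2). These 5 genes and Dtx3l were chosen after their values were seen, from lists of 17 and 32 measured genes.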
